A study of Homo sapiens with 4 samples.

Results

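The sites described here are places in the human genome where BrdU peaks of BJ-hTERT cells lay over each other in sequence under a limit on self-match. The limit, given below, leaves out close tandem arrays, but imperfect ones can remain. BJ-hTERT is a line of human foreskin fibroblasts immortalized with telomerase. The cells were synchronized in G0/G1 by serum starvation, released, pulsed with BrdU and collected at 16, 19, 22, 24 and 28 h, in 2 repeats. The peaks called in each timepoint over Input were deposited together as 33295 intervals on hg38, and the list does not say to which timepoint or repeat a peak belongs or how high it was. RNAPII and PCNA ChIP-Seq libraries of the same line, at 14 and 16 h with 1 library each, were not analysed here. Overlapping or touching peaks were merged into 25634 sites, of which 25287 lay on chromosomes 1 to 22. The depth of a site was the largest number of peaks over any of its bases. A site was kept when its depth was 2 or 3 and when no peak in it matched its own sequence at 70% or more of positions at any offset of 1 to 120 bp. This gave 4128 overlapping sites, 3681 with a depth of 2 and 447 with a depth of 3, which held 8982 peaks. They were compared with 19342 single sites, which hold 1 peak and met the same limit on self-match. Depth and self-match chose the sites, so they are described without a test. Of the 23470 sites in both classes, 17.6% overlapped and 1.90% had a depth of 3. Another 118 sites under the limit had a depth of 4 or 5 and were left out by the rule.

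BrdU is a thymidine analogue that polymerases build into new DNA, and BrdU-Seq sequences the DNA recovered with an antibody against it. Where forks slow down or pause in many cells, labelled DNA gathers over a short stretch and can appear as a narrow peak above the broad signal of replicated DNA. Forks can be held up by transcription, by bound proteins, by unusual DNA structures and by repeats such as runs of CA. A list that pools timepoints and repeats can hold a place more than once, if it was called in more than 1 library, and such a place appears as overlapping peaks. Which timepoints gave the peaks of a site cannot be told from the list. Whether peaks were called in each repeat on its own is not stated. The list also holds no read counts, so the sequencing depth behind a peak is unknown.

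The sequences of 8 sites in introns of protein-coding genes show how the peaks lay. All are the reference strand of hg38 with positions counted from 1, and capitals mark the bases that lay under 2 or more peaks. The first set holds sites of depth 3 whose peaks had the closest edges among overlapping sites of at most 300 bp.
CDC42BPA, intron 2 of 36, chr1:227221121-227221392: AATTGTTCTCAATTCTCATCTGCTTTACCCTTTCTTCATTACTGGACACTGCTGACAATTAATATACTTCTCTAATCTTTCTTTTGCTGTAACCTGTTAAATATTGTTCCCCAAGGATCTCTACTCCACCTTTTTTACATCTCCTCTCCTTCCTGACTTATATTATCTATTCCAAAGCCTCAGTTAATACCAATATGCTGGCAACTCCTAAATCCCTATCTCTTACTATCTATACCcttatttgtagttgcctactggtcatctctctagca
TDRD7, intron 16 of 16, chr9:97489194-97489464: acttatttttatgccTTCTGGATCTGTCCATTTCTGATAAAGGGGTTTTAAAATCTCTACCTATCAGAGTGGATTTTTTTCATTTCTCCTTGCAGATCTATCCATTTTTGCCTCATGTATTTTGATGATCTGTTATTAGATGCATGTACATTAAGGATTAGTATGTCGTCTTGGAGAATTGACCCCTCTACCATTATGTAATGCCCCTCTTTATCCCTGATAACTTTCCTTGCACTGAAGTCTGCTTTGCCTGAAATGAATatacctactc
ABCA13, intron 2 of 61, chr7:48194195-48194470: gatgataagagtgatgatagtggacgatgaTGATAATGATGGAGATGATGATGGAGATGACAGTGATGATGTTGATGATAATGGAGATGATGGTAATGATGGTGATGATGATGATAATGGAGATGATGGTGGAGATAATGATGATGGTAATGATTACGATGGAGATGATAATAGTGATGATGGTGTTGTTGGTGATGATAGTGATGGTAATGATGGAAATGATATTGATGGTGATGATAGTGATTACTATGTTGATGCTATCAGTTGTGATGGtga
In CDC42BPA, the gene of a kinase that acts downstream of CDC42, peaks of 236, 272 and 207 bp shared 207 bp. The site in TDRD7, a tudor domain gene, held peaks of 255, 256 and 190 bp and had the lowest self-match of the set, 40.4%. The site in ABCA13, which codes for an ABC transporter, was close to the limit with a self-match of 69.2%, and imperfect repeats of GAT run through it.

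The next sites had a depth of 2 and the closest edges among the candidates, which were at most 300 bp wide and in introns of protein-coding genes.
SPI1, intron 4 of 4, chr11:47355858-47356059: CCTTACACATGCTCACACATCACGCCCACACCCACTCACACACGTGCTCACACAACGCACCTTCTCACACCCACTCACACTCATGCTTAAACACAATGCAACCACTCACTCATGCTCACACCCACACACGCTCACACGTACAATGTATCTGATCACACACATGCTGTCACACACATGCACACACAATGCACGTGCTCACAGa
PXDN, intron 14 of 22, chr2:1655871-1656152: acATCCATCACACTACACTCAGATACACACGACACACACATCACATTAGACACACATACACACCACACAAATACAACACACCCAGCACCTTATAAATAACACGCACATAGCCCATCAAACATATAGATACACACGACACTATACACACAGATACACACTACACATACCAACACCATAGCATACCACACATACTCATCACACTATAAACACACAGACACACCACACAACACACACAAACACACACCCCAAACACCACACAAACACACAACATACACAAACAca
In SPI1, the gene of the transcription factor PU.1, peaks of 201 and 202 bp began at the same base and ended 1 bp apart. In PXDN, which codes for an enzyme that crosslinks collagen IV, both peaks were 280 bp wide and shared 278 bp. Both sites were rich in CA without being a perfect array, and their self-match was 50.9% and 55.4%.

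At the other end of the range, these sites shared the fewest bases among those of at most 300 bp.
USP53, intron 3 of 18, chr4:119222260-119222559: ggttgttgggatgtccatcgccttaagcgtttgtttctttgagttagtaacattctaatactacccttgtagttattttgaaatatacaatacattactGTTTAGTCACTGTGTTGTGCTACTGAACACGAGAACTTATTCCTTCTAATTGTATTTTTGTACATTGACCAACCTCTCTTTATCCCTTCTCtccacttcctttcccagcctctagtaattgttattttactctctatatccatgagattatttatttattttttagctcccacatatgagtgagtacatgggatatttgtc
USP47, intron 1 of 27, chr11:11852576-11852875: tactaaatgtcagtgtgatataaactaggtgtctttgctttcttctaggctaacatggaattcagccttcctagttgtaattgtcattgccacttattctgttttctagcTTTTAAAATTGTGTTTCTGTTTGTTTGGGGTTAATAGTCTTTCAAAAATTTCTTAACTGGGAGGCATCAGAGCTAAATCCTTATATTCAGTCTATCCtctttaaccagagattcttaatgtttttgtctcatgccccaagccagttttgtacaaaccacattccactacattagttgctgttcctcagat
The peaks of the USP53 site shared 91 bp and those of the USP47 site 97 bp, and both sites were T-rich sequence with a self-match of 41.8% and 38.5%. The last site was chosen after values had been seen, as the one with the most thymidine on 1 strand outside perfect tracts.
CHSY1, intron 2 of 2, chr15:101182946-101183230: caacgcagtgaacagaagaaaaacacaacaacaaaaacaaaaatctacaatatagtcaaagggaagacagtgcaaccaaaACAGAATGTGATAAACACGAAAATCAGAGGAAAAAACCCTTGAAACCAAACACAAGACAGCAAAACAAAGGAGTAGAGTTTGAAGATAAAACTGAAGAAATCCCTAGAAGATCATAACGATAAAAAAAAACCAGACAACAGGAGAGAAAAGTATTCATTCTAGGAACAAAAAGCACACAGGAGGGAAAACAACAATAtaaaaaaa
The site of CHSY1, a chondroitin synthase gene, is A-rich on the strand printed, so its complement held 55.1% thymidine.

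Peaks of an overlapping site mostly covered the same place rather than touching at their edges. Among the 3511 sites made of 2 peaks, 1 peak lay inside the other in 1658 (47.2%), and 66.0% shared at least 90% of the shorter peak. Under 10% of the shorter peak was shared in 28 sites (0.797%). The centres lay a median of 61 bp apart (interquartile range 27 to 119 bp). The narrower peak was a median of 251 bp wide, close to the width of single sites, 256 bp, and the wider peak 397 bp. No pair had the same start and end, whereas 26 sites shared a start and 20 an end. The merged sites were thus wide, with a median of 444 bp at depth 2 and 600 bp at depth 3, and together they covered 2.16 Mb. In the 384 sites of depth 3 made of 3 peaks, all 3 lay over a median of 238 bp. A chain of peaks that was longer than its depth occurred in 233 overlapping sites, with up to 7 peaks.

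**Figure D1:**
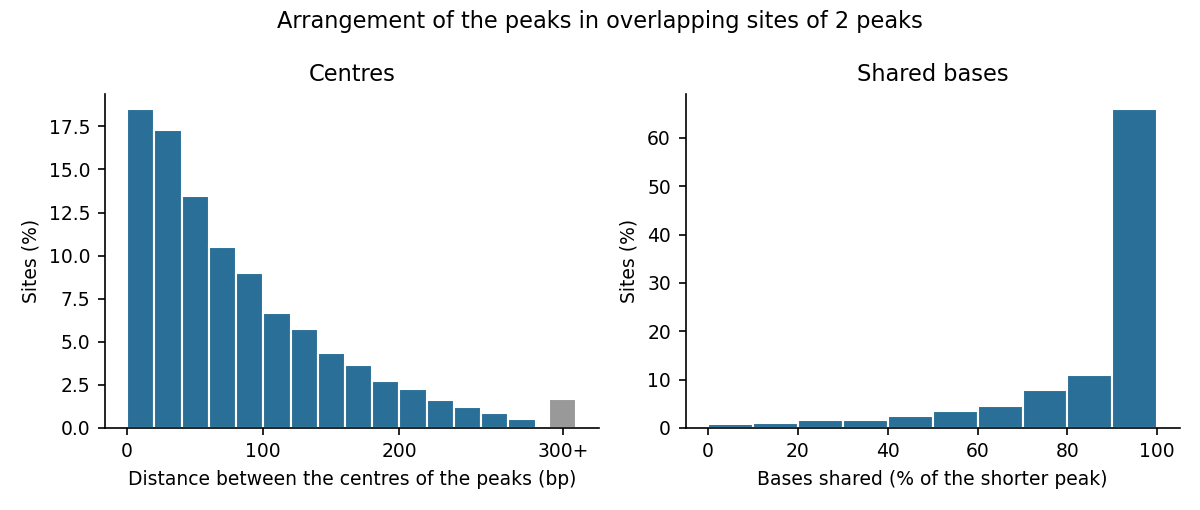
Overlapping sites made of 2 peaks (n = 3511). On the left, bars give the percent of sites by the distance between the centres of the peaks in bp (the grey bar holds 300 bp and more), and on the right by the bases shared as a percent of the shorter peak. The median distance was 61 bp and 66.0% of the sites shared at least 90% of the shorter peak, so most sites stand at the left of the plot of centres and at the right of the plot of shared bases.

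The limit on self-match did not leave a class of uniform sequence. The self-match of single sites formed a narrow group with a median of 36.2%, and that of depth 2 sites had nearly the same centre, 38.0%. Sites of depth 3 fell into a group around the same value and a larger one that reached up to the limit, with a median of 59.1%. The self-match of a site was the highest among its peaks, so sites with more peaks had more chances of a high value. A self-match of 45% or more was found in 6.46% of single sites, in 19.8% of the sites of depth 2 and in 73.2% of those of depth 3. The name repeat-free therefore holds for most sites of depth 2 and for the minority of sites of depth 3. Among the sites closest to the limit, those just inside had a self-match of 69.91% to 69.97% and included sites in CACNA1A and ZDHHC11, and those just outside had at most 70.03% and included sites in NSUN6 and SBNO2. Below, differences over all overlapping sites are followed by those for the 3074 with a self-match under 45% and the 1054 with 45% to under 70%. This split was chosen after the distribution had been seen.

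**Figure D2:**
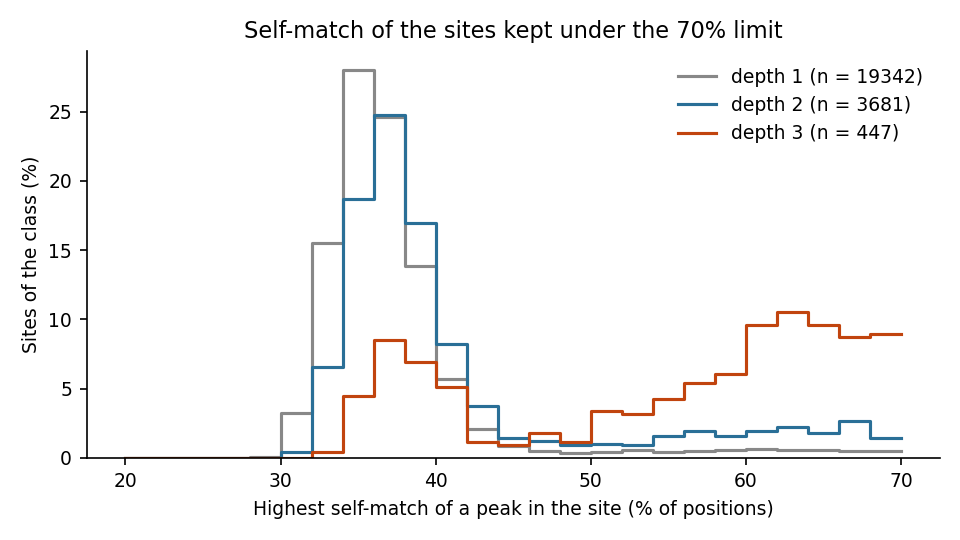
The x axis is the highest self-match of any peak in a site, in percent of positions, and the y axis the percent of sites in steps of 2%, for depth 1 (grey), 2 (blue) and 3 (orange). Single sites and sites of depth 2 peak between 34% and 38%, and sites of depth 3 have most of their sites between 50% and the limit of 70%.

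Sequence, genes and spacing were compared by ordinary least squares over sites, with the class and the chromosome as terms and errors clustered by the 22 chromosomes. The 16 two-sided p-values were adjusted by the Benjamini-Hochberg method with a threshold of 0.05. Differences below are overlapping minus single with their standard error, in percentage points for shares. Neighbouring sites are not independent and the list has no replicates, so these p-values describe variation between chromosomes within 1 list.

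The difference in sequence that held in every comparison was thymidine on 1 strand. Counting for each site whichever strand had more T, thymidine made up 39.0% of this T-richer strand in overlapping and 37.4% in single sites (+1.56 ± 0.129, n = 23470, adjusted p = 1.0e-09, higher in 22 of 22 chromosomes). With a self-match under 45%, the values were 38.9% and 37.4% (+1.57 ± 0.129, n = 21166, adjusted p = 8.8e-10). With 45% to under 70% they were 39.1% and 38.2%, a smaller difference that also passed the test (+0.81 ± 0.231, n = 2304, adjusted p = 0.016). The difference was +0.81 to +2.43 over all 14 alternatives and passed the test in each. Read along the T-richer strand, the hexamers that gained most in overlapping sites with a self-match under 45% were pyrimidine runs. TCTTTT made up 2.51 per 1000 hexamers against 2.12 in single sites, TTCTTT 2.76 against 2.37 and TTTCTT 2.57 against 2.22. TGTGTG had the largest deficit there, with 1.13 against 1.33 per 1000. In protein-coding genes, the T-richer strand was the coding strand in 61.6% of overlapping sites (95% Wilson interval 59.6 to 63.6%) and in 62.9% of single sites (62.0 to 63.9%). The difference was within its error (-1.30 ± 1.34, n = 2242 and 10223, p = 0.34, 95% interval of the difference -4.10 to 1.49, a comparison chosen after the data were seen).

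AT content was lower in overlapping sites over all and higher in those with a self-match under 45%. Over all sites it was 60.5% in overlapping and 60.9% in single sites (-0.354 ± 0.154, n = 23470, adjusted p = 0.042, lower in 15 of 22 chromosomes). This difference no longer passed in 8 of 14 alternatives and turned in 3. At depth 2 it was -0.0573 (n = 3681 and 19342, adjusted p = 0.73), and with peak width as a covariate -0.0239 (n = 23470, adjusted p = 0.92). With a self-match under 45% AT content was higher in overlapping sites, 62.1% against 61.3% (+0.785 ± 0.0941, n = 21166, adjusted p = 2.3e-07). With 45% to under 70% the values were 55.7% and 55.5%, which did not pass (+0.260 ± 0.221, n = 2304, adjusted p = 0.34). CpG was rarer in overlapping sites with a self-match under 45%, with 0.486 per 100 bp against 0.541 in single sites (n = 21166, adjusted p = 0.0043). The CpG difference of -0.126 with 45% to under 70% (n = 2304, adjusted p = 0.083) and that of 0.0222 over all sites (adjusted p = 0.25, 95% interval -0.0141 to 0.0585) did not pass. Within sites that had at least 50 bp both under 2 or more peaks and under 1 peak (n = 3652), the shared bases were AT-richer than the outer ones, with 60.6% against 60.2% (+0.363 ± 0.062, higher in 1938 sites and lower in 1709). At depth 3 this difference was +1.07 ± 0.211. The shared bases were AT-richer in 19 of 22 chromosomes over all these sites and in 16 of 22 at depth 3. The comparison within sites was added after the data were seen.

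Of the measures of composition, CA repeats differed most over all sites in units of their SD. Runs of CA match themselves at an offset of 2 bp, so they also raise the self-match that the rule capped. Every peak of a site had to meet the cap, so a site with more peaks had more chances to exceed it. The cap was the same for both classes but removed unequal parts of them. It kept 96.3% of the sites of depth 1, 88.9% of those of depth 2 and 62.7% of those of depth 3. The values below are for the sites that remained. Alternating CA hexamers on either strand, that is CACACA and ACACAC with their reverse complements, made up 1.97% of the hexamers of an overlapping site and 0.695% of those of a single site on average (+1.24 ± 0.146, n = 23470, adjusted p = 2.4e-07, higher in 22 of 22 chromosomes). CACACA with its complement reached 11.7 per 1000 hexamers in overlapping sites, 29.7 at depth 3 and 3.77 in single sites. With a self-match under 45%, the share was 0.298% in overlapping and 0.330% in single sites, a difference that did not pass (-0.0301 ± 0.0266, n = 21166, adjusted p = 0.33). With 45% to under 70%, the shares were 6.86% and 5.98% (+0.90 ± 0.335, n = 2304, adjusted p = 0.054). The difference passed in neither class of self-match, and since the split itself removes CA-rich sites from the lower class, these values do not show where the difference lies. The shared and the outer bases of a site held nearly the same share of these hexamers, 1.88% and 1.86% (+0.013 ± 0.041, n = 3652, adjusted p = 0.76).

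Short tandem tracts, stretches of 20 bp or more in which a unit of 1 to 6 bp repeats without error, lay in 6.18% of overlapping and 2.36% of single sites (+3.70 ± 0.650, n = 23470, adjusted p = 3.9e-05, higher in 22 of 22 chromosomes). Overlapping sites were wider and so held more sequence, and within 300 bp around each midpoint the difference in tracts was +1.48 ± 0.568 (n = 23470, adjusted p = 0.029). Of the 255 overlapping sites with a tract, 95 (37.3%) had a unit of 4 bp, 67 (26.3%) were CA or TG and 42 had a unit of 6 bp. In the 456 single sites with a tract, CA or TG was the commonest kind with 195 (42.8%), and units of 4 bp made up 25.0%. In sites of depth 3, 29 of 67 tracts had a unit of 4 bp and 9 were CA or TG. Below a self-match of 45%, tracts were found in 2.11% of overlapping and 1.48% of single sites, which did not pass the test (+0.65 ± 0.498, n = 21166, adjusted p = 0.28). With 45% to under 70% they were found in 18.0% and 15.0%, which did not pass either (+3.27 ± 1.91, n = 2304, adjusted p = 0.18). Tracts also raise the self-match, as runs of CA do.

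Sequence that occurs elsewhere in the genome was a little more common in overlapping sites. On average, 14.5% of the 31-mers of an overlapping site and 11.8% of those of a single site had more than 1 copy in hg38 (+2.44 ± 0.716, n = 23470, adjusted p = 0.0052, higher in 16 of 22 chromosomes). The difference was +3.43 ± 0.802 with a self-match under 45% (n = 21166, adjusted p = 0.0011). It turned to -2.88 ± 0.984 with 45% to under 70% (n = 2304, adjusted p = 0.043). Overlapping sites were wider, with a median of 457.5 bp against 256 bp, and so held more 31-mers that could be multicopy. Within 300 bp around each midpoint, the difference in the mean share was +2.52 ± 0.716 (n = 23470, adjusted p = 0.0047). The share of sites without any multicopy 31-mer was not compared at equal width. Over whole sites, no multicopy 31-mer was found in 39.7% of overlapping and 54.5% of single sites. Reads from such copies can be placed at more than 1 position, and the part of this in the overlap of peaks was not tested. A G-quadruplex motif, 4 runs of at least 3 G with loops of 1 to 7 bases on either strand, lay in 1.41% and 0.739% of sites (+0.650 ± 0.231, n = 23470, adjusted p = 0.015). The difference in this motif was +0.647 with a self-match under 45% (n = 21166, adjusted p = 0.062) and +0.530 with 45% to under 70% (n = 2304, adjusted p = 0.34), and neither passed. Within 300 bp around each midpoint it turned to -0.291 and did not pass (n = 23470, adjusted p = 0.086).

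**Figure D3:**
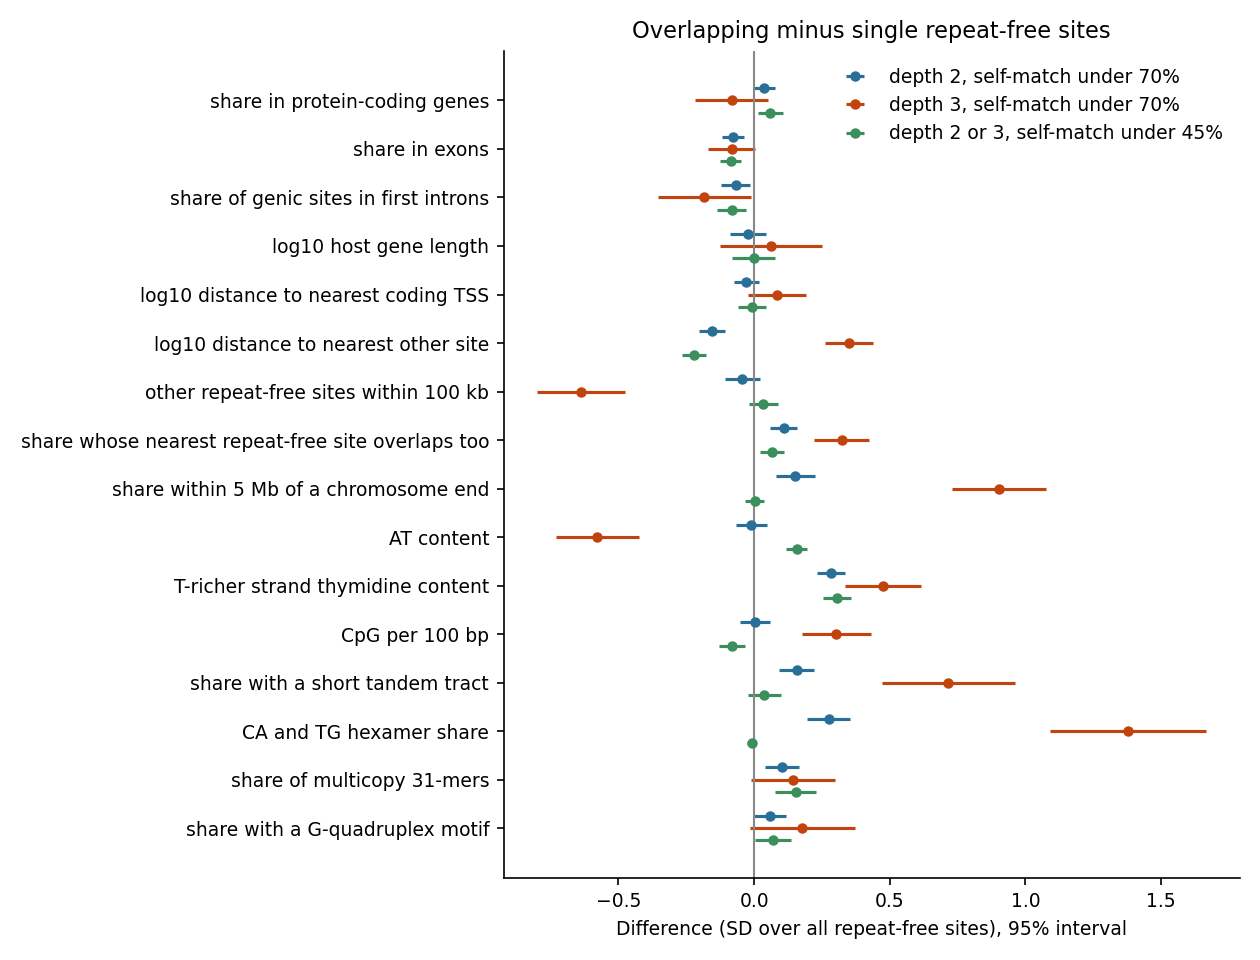
For each of the 16 measures, points give the difference from single sites in units of the SD over all repeat-free sites, with its 95% interval, for depth 2 (blue), depth 3 (orange) and for depth 2 or 3 with a self-match under 45% (green). The T-richer strand lies to the right of 0 in all 3 sets, whereas chromosome ends, tracts and CA hexamers lie far to the right at depth 3 and near 0 under 45%. In the green set, neighbouring repeat-free sites are taken only from sites under 45%.

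Overlapping sites lay less often in exons and first introns than single sites, and the difference in protein-coding genes did not pass over all sites. The midpoint was in a protein-coding gene in 54.3% of overlapping and 53.2% of single sites (+1.26 ± 1.00, n = 23470, adjusted p = 0.25, 95% interval -0.825 to 3.34). Below a self-match of 45%, it was in a gene in 56.9% and 53.8% (+2.98 ± 1.11, n = 21166, adjusted p = 0.024), and the difference with 45% to under 70% was +3.37 (n = 2304, adjusted p = 0.25). Exons held 2.50% of overlapping and 3.88% of single sites (-1.45 ± 0.334, n = 23470, adjusted p = 0.00065, lower in 19 of 22 chromosomes). Among sites in introns, the first intron of the main transcript held 22.8% of 1902 overlapping and 26.3% of 8396 single sites (-3.48 ± 1.19, n = 10298, adjusted p = 0.013, lower in 17 of 22 chromosomes). Both differences also passed under 45% (-1.63 ± 0.343 and -3.58 ± 1.13). With 45% to under 70%, the exon difference of -1.25 did not pass (n = 2304, adjusted p = 0.15) and the difference in first introns turned to +2.48 and did not pass either (adjusted p = 0.53). Later introns held 34.6% of all overlapping and 30.8% of single sites, and lncRNA genes alone 13.3% and 14.1%. Sequence outside both kinds of gene held nearly equal shares, 31.9% and 32.0%. At depth 3, the share outside both was 41.8%, and at depth 2 it was 30.7%. These shares were not tested.

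Neither the length of the host gene nor the distance to a start site passed the test over all sites. Host genes had a median length of 133 kb for overlapping and 138 kb for single sites (log10 difference -0.0061 ± 0.0143, n = 12525, adjusted p = 0.67, 95% interval -0.0358 to 0.0235). This log10 difference was -0.00083 with a self-match under 45% and -0.0247 with 45% to under 70%, and neither passed. The nearest start of a protein-coding gene lay a median of 48.6 kb and 50.0 kb away (log10 difference -0.0102 ± 0.0131, n = 23470, adjusted p = 0.47, 95% interval -0.0375 to 0.0170). Within 1 kb of such a start lay 22 overlapping sites (0.533%) and 0.636% of single sites. In sites with a self-match of 45% to under 70% the distance passed the test, with overlapping sites closer to a start (log10 difference -0.126 ± 0.0242, n = 2304, adjusted p = 0.00060). Under 45% it did not (-0.0055, n = 21166, adjusted p = 0.81). Overlapping sites made up 17.4% of the sites in genes under 30 kb, 17.9% from 30 to 100 kb, 18.4% from 100 to 500 kb and 15.1% (12.97 to 17.44%) in longer genes.

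At least 1 overlapping site lay in 1394 of 19111 autosomal protein-coding genes (7.29%). Of these genes, 928 held 1 site, 245 held 2 and 221 held 3 or more, and 210 held a site of depth 3. Genes with an overlapping site had a median length of 103 kb, genes with single sites only 74.0 kb and all genes 27.9 kb. Counts per gene are small, and sites of 1 gene share its position and replication time. The largest number was in LRRC49, a leucine-rich repeat gene on chromosome 15, with 13 overlapping sites among 57 repeat-free sites (22.8%, 13.8 to 35.2%) over 200 kb. Their width ranged from 337 to 2155 bp, they lay in introns 4 to 15 and once outside the main transcript, and all 13 had a self-match under 45%. CD36, which codes for a fatty acid receptor, had 12 of 23 (52.2%, 33.0 to 70.8%). Of these, 11 lay in no intron of its main transcript, and the bases under both peaks ranged from 1 to 469. CWC27, which codes for a protein of the spliceosome, had 12 of 57 (21.1%).

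In CEP63, which codes for a centrosomal protein, 11 of 21 sites overlapped (52.4%, 32.4 to 71.7%), or 10.8 per 100 kb of gene. The intron 2 of CEP63 held 4 of them within the stretch from 134498426 to 134504768 of chromosome 3, and their width ranged from 494 to 962 bp. USP47, a ubiquitin protease gene, had 11 of 34 (32.4%), with 38.5% self-match in the site printed above and under 45% in 10 of the 11. The highest numbers per 100 kb after CEP63 were in BTG4 (10.7), COPB1 (10.6) and USP47 (9.13). COPB1 codes for a subunit of the coat of Golgi vesicles and held 6 of 16, and BTG4, a gene of the BTG family, 5 of 11. These genes were chosen for their counts, so their shares are not set against 17.6% with a test. NBPF14 also had 12 of 28, but the median site there consisted entirely of 31-mers with other copies, and the lowest share in a site was 89.7%. Its peaks are uncertain, since reads of such copies can be placed at more than 1 position, and their placement was not tested.

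Of 30 genes at common fragile sites, regions that break under replication stress, 4 held an overlapping site (13.3%), and the other lists held 11 of 76 genes of DNA replication and fork repair (14.5%) and 11 of 57 genes of fibroblast matrix and cytoskeleton (19.3%), beside 7.29% of all autosomal protein-coding genes. The median gene of each list and of all genes held 0. Genes at common fragile sites have a median length of 1354 kb. Of the repeat-free sites in each list, 7 of 62 overlapped in fragile site genes (11.3%, 5.58 to 21.5%), 16 of 87 in replication genes (18.4%, 11.7 to 27.8%) and 24 of 191 in fibroblast genes (12.6%, 8.59 to 18.0%), beside 18.0% (17.3 to 18.6%) over all genes. RBFOX1, a splicing regulator, held 3 of 6, PARD3B, a polarity gene, 2 of 7, and DAB1, a neuronal adaptor gene, its only repeat-free site. The 3 sites of RBFOX1 all had a self-match of 45% or more and those of PARD3B and DAB1 a lower one. Among replication genes, PRIM2, a subunit of primase, held 3 of 26, FANCD2 of the Fanconi pathway 2 of 4 and BRCA2, which protects stalled forks, 2 of 5. The PRIM2 sites had a median of 52.6% multicopy 31-mers and are uncertain. The BRCA2 sites, 473 and 368 bp wide, lay in introns 13 and 16, had a self-match of 38.8% and 36.7% and no multicopy 31-mer. Fibroblast genes with the most sites were CALD1, which codes for caldesmon, with 4 of 31, LAMC1, a laminin chain, with 4 of 26 and COL5A1, a chain of collagen V, with 4 of 9. The 4 COL5A1 sites all had a self-match of 45% or more, like the 4 of PXDN, all of whose repeat-free sites overlapped.

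A last list held genes that the publication shows or tests, most of them for their peaks, so their share is not independent evidence. SPTAN1 was in it although it served for transcription rates. At least 1 overlapping site lay in 9 of its 17 genes (52.9%), beside 7.29% of all genes, and 15 of their 67 repeat-free sites overlapped (22.4%, 14.1 to 33.7%), close to the 18.0% over all genes. CDC42EP3, an effector of CDC42, held 3 sites of 364 to 962 bp and DLGAP5, a mitotic spindle gene, 2 of 606 and 611 bp. All of these had a self-match under 45%, as did the site of ARHGAP20. The DIP2C sites both had a depth of 3, 717 and 1161 bp wide in intron 1, and the same gene held 6 sites with a peak over the limit on self-match. RASA3, CMIP and ASAP2 each held 1 site of depth 3, with a self-match of 66.0%, 61.9% and 54.2%. The site of C1orf159 was 933 bp wide. EXD3, KHDRBS1, NUP153, POLR2J, POLR2J2, RAB40B, SPTAN1 and TMEM242 held none.

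Sites of depth 2 had a closer neighbour than single sites, and sites of depth 3 a more distant one. Over both depths, the nearest other site was a median of 4250 bp away for overlapping and 5184 bp for single sites (log10 difference -0.0814 ± 0.0184, n = 23470, adjusted p = 0.00062, closer in 16 of 22 chromosomes). The log10 difference was -0.124 at depth 2 (n = 3681 and 19342, adjusted p = 3.9e-06) and +0.281 at depth 3 (n = 447 and 19342, adjusted p = 2.2e-07). It was -0.178 with a self-match under 45% (n = 21166, adjusted p = 7.3e-09) and -0.0246 with 45% to under 70% (n = 2304, adjusted p = 0.53). Under 45%, the median distance was 4931.5 bp for single sites, 2915.5 bp at depth 2 and 6279.5 bp at depth 3. With 45% to under 70%, single sites were also far from others, with medians of 16688.5, 12828 and 18812 bp in the same order. Depth 3 minus depth 2 under 45% was +0.204 in log10 and did not pass (n = 3074, adjusted p = 0.093). With the width of the peaks as a covariate the difference over both depths was -0.0033 and did not pass (n = 23470, adjusted p = 0.92). The nearest repeat-free site overlapped too for 22.5% of overlapping and 17.1% of single sites (+5.02 ± 0.837, n = 23470, adjusted p = 2.4e-05, higher in 20 of 22 chromosomes). The difference was +2.51 under 45% (n = 21166, adjusted p = 0.011) and +4.12 with 45% to under 70% (n = 2304, adjusted p = 0.15). Under 45% the nearest site was sought among sites under 45%, and with 45% to under 70% among all repeat-free sites. Within bins of 5 Mb the difference was +0.612 and did not pass (n = 23470, adjusted p = 0.55). The number of other repeat-free sites within 100 kb averaged 12 for overlapping and 13.6 for single sites (-1.39 ± 0.462, n = 23470, adjusted p = 0.012). Sites with a self-match under 45% had 14.3 and 13.9 others that were also under 45%, which did not pass (+0.435 ± 0.335, n = 21166, adjusted p = 0.28). Sites with 45% to under 70% had 4.26 and 4.28 others, counted among all repeat-free sites (+0.0648 with the chromosome as a term, n = 2304, adjusted p = 0.84). The values of these classes thus rest on different sets of neighbours.

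The windows of 1 Mb with the most overlapping sites were not at chromosome ends. From 46 to 47 Mb of chromosome 12, 33 of 110 repeat-free sites overlapped, of which 1 was in SLC38A4. From 148 to 149 Mb of chromosome 1 there were 26 of 73, with 12 in NBPF14 and 7 in PDE4DIP, and 3 of them had a depth of 3. From 39 to 40 Mb of chromosome 15 there were 25 of 131, with 4 in FSIP1. From 10 to 11 Mb of chromosome 11 there were 24 of 91, including 6 in SBF2 and 5 in AMPD3, which codes for an AMP deaminase. From 143 to 144 Mb of chromosome 5 there were 24 of 73, including 7 in ARHGAP26 and 6 in NR3C1, the gene of the glucocorticoid receptor. The windows on chromosomes 12, 15, 11 and 5 held no site of depth 3. These 5 windows were chosen for their counts.

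Chromosome ends held an excess of overlapping sites over all, which passed in neither class of self-match alone. Within 5 Mb of an end lay 10.7% of overlapping and 4.88% of single sites (+5.44 ± 0.904, n = 23470, adjusted p = 2.4e-05, higher in 22 of 22 chromosomes). Of the sites in the last Mb, 39.5% (33.3 to 46.1%) overlapped, and the share fell with distance through 36.0%, 28.7%, 22.6% and 18.2% to 16.0% (15.5 to 16.5%) beyond 20 Mb. The share with a depth of 3 fell from 12.7% to 1.06%. Among sites with a self-match under 45%, 3.32% of overlapping and 3.34% of single sites lay within 5 Mb of an end (+0.045 ± 0.400, n = 21166, adjusted p = 0.96, not called). There the share that overlapped was 16.8% (10.6 to 25.6%) in the last Mb and 14.6% (14.1 to 15.2%) beyond 20 Mb. Sites with 45% or more made up 56.8% of the sites in the last Mb and 5.28% beyond 20 Mb. With 45% to under 70%, 32.4% of overlapping and 27.2% of single sites lay near an end (+4.44 ± 2.17, n = 2304, adjusted p = 0.14). The higher class of self-match held 1054 of the 4128 overlapping sites and 6.46% of single sites. The most overlapping sites at 1 end were 29 at the end of chromosome 2, 28 at the start of chromosome 10 and 25 at the start of chromosome 19.

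**Figure D4:**
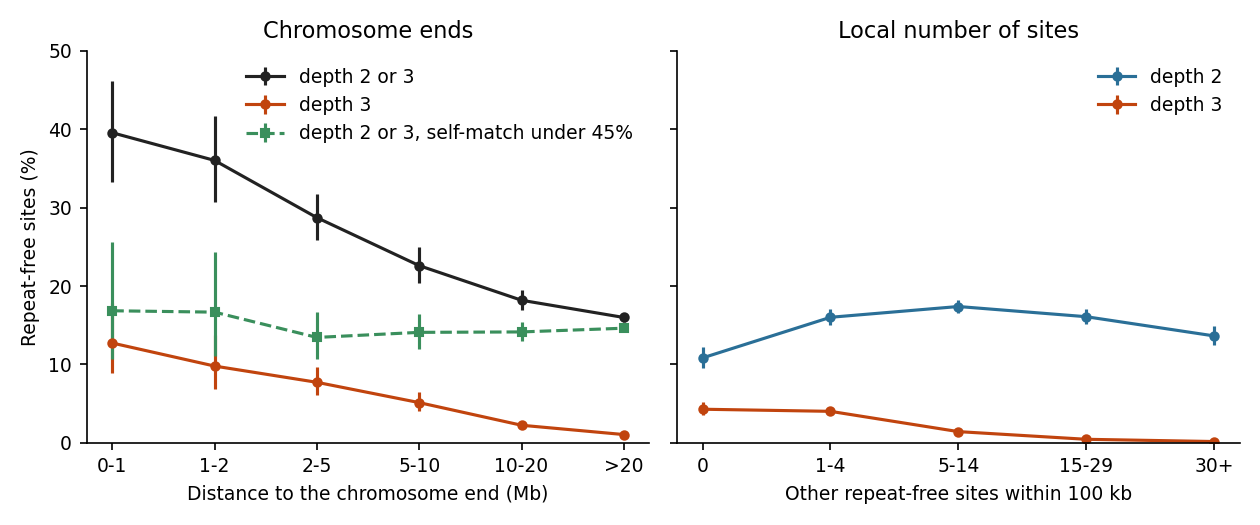
The y axis is the percent of repeat-free sites with a depth of 2 or 3 (black), of 2 (blue) or of 3 (orange), with 95% Wilson intervals, by distance to the chromosome end in Mb (left) and by the number of other repeat-free sites within 100 kb (right). The dashed green line holds sites with a self-match under 45%, and it stays between 13.4% and 16.8% while the black line falls from 39.5% to 16.0%.

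Shares by chromosome also depended on the limit. Overlapping sites made up 27.4% (23.02 to 32.27%) of the repeat-free sites of chromosome 16 and 26.3% (22.6 to 30.5%) of those of chromosome 19, beside 17.6% over all, and the lowest share was 15.0% (13.1 to 17.0%) on chromosome 8. On chromosome 16, 40.2% of the overlapping sites lay within 5 Mb of an end. Below a self-match of 45%, the shares on chromosomes 16 and 19 were 12.3% (8.55 to 17.4%) and 11.3% (8.19 to 15.5%), and the highest was 17.8% (15.7 to 20.2%) on chromosome 4. These shares are descriptions, with no test between chromosomes.

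**Figure D5:**
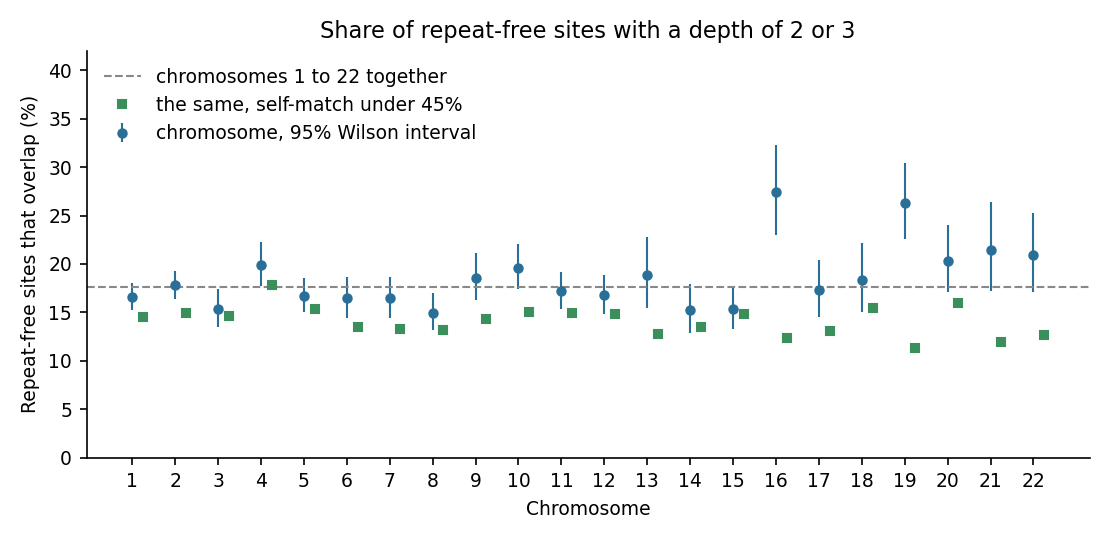
Circles give the percent of repeat-free sites of each chromosome that overlap, with 95% Wilson intervals, squares the same share among sites with a self-match under 45%, and the dashed line the 17.6% over all chromosomes. Chromosomes 16 and 19 stand above the line as circles and are among the lowest as squares.

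Sites of depth 3 differed from sites of depth 2 in most of these measures, in a comparison chosen after the data were seen. They lay within 5 Mb of an end in 27.7% against 8.67% (+16.0 ± 2.11, n = 4128, adjusted p = 1.0e-06), held a tract in 15.0% against 5.11% (+8.61 ± 1.87, adjusted p = 0.00041) and had 57.7% AT against 60.8% (-2.56 ± 0.399, adjusted p = 7.6e-06). They were also isolated, with a median of 14415 bp to the nearest other site against 3678 bp and with 4.45 other repeat-free sites within 100 kb against 12.9 (-7.33 ± 0.597, n = 4128, adjusted p = 7.6e-10). Sites without another within 100 kb had a depth of 3 in 4.29% (3.51 to 5.22%), and sites with 30 or more in 0.165% (0.0707 to 0.387%). Depth 2 was commonest between these, with 17.4% (16.6 to 18.3%) at 5 to 14 other sites, 10.8% at none and 13.6% at 30 or more. Without sites near chromosome ends, the differences in AT (-2.28), tracts (+8.09) and number of sites within 100 kb (-7.69) were all called.

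Among the 120 sites of depth 3 and 2954 of depth 2 with a self-match under 45%, 1 of the 16 differences was called. The sites of depth 3 had 7.98 other sites with a self-match under 45% within 100 kb and those of depth 2 had 14.6 (-6.36, n = 3074, adjusted p = 0.00075). Chromosome ends held 4.17% and 3.28% of them (n = 3074, adjusted p = 0.87), AT content was 61.2% and 62.1% (adjusted p = 0.35) and the share of CA and TG hexamers 0.311% and 0.297% (adjusted p = 0.87). Multicopy 31-mers made up 23.2% and 14.3% (+7.49, n = 3074, adjusted p = 0.10). With 45% to under 70%, 327 sites had a depth of 3 and 727 a depth of 2. Chromosome ends held 36.4% and 30.5% of these, and tracts were found in 19.0% and 17.6%. AT content was 56.4% and 55.5%, opposite in direction to the pooled difference, and CA and TG hexamers made up 6.98% and 6.80%. Other repeat-free sites within 100 kb averaged 3.06 and 4.80. The differences in this class were not tested.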

How the data were processed

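The authors used Bowtie2 (version 2.3.4.2) to align BrdU-Seq reads to hg38, and MACS2 (version 2.1.0, model limits 8 and 30, p threshold 1e-05) to call peaks over Input. The deposited list gives positions in bp, with no signal, score or count. The number of peaks called thus depends on the depth of each library, which is unknown here. The start column was taken to count from 0, and printed positions count from 1.

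Peaks were merged per chromosome, and genes came from GENCODE version 44 by the midpoint of each site. The host was the longest gene at the midpoint. Fits used statsmodels 0.14.6, with numpy 2.4.6, pandas 2.3.3 and numba 0.67.0. Intervals of shares are 95% Wilson intervals and cover counting error only. Code was checked on simulated sequences, intervals (against bedtools 2.31.1) and differences.

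The members, gene lists, measures and tests were chosen with earlier results of these data known. Genes named are the 6 with the most overlapping sites, the 4 with most per 100 kb among those with at least 3, those holding printed sequences, the study's genes with a site, and up to 3 with the most sites in each other list. Other genes were named for a window or for the limit after values were seen. A further sequence is not reported here. The list holds positions only, so the cell line could not be checked against markers.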

Additional observations from a re-analysis of the deposited data

How the results depend on the processing

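Across 18 results and 212 alternatives, 154 changed neither direction nor call (counts: within 1.5 times), 31 no longer passed the test, 4 newly passed it and 23 turned direction. Of those that turned, 12 passed the test in neither fit, namely coding genes at depth 3 (-4.16), host gene length with a limit of 60% (0.000570), at depth 3 (0.0260), with peak width (0.00189) and within bins (0.00227), the distance to a start at depth 3 (0.0504), within bins (9.7e-05) and to any gene (0.00861), and CpG at 45% to under 70% (-0.126), with 60% (-0.00757), within bins (-0.0150) and without chromosome ends (-0.00773). The limit on self-match moved the results most. With a limit of 45%, added after the data were seen, 3074 sites remained, the difference in coding genes (2.98) newly passed, those in chromosome ends (0.0455), tracts (0.651) and G-quadruplex motifs (0.647) no longer passed, and those in sites within 100 kb (0.435), AT content (0.785), CpG (-0.0522) and CA and TG hexamers (-0.0301) turned. In sites of 45% to under 70% alone, also added, exons (-1.25), the nearest other site (-0.0246), the nearest site overlapping too (4.12), chromosome ends (4.44), tracts (3.27), CA and TG hexamers (0.904) and G-quadruplex motifs (0.530) no longer passed, the distance to a start newly passed (-0.126), and first introns (2.48), sites within 100 kb (0.0648), AT content (0.260) and multicopy 31-mers (-2.88) turned. With a limit of 60%, sites within 100 kb (-0.512) no longer passed and AT content turned (0.235), and with 80% CpG newly passed (0.0430). At depth 2 alone, sites within 100 kb (-0.576), AT content (-0.0573) and G-quadruplex motifs (0.538) no longer passed. At depth 3 alone, exons (-1.55), first introns (-8.04), multicopy 31-mers (3.22) and G-quadruplex motifs (1.64) no longer passed, CpG newly passed (0.194) and the nearest other site turned (0.281). With peak width as a covariate, the nearest other site (-0.00329), AT content (-0.0239) and G-quadruplex motifs (0.295) no longer passed, and within bins of 5 Mb neither did the nearest site overlapping too (0.612) or AT content (-0.0401). AT content also no longer passed without sites of 50% or more multicopy 31-mers (-0.278), without tracts (-0.228), without chromosomes 19 and 21 (-0.279), within 300 bp (-0.291) and, in an alternative added later, without chromosome ends (-0.0465). G-quadruplex motifs no longer passed without multicopy sites (0.556) and turned within 300 bp (-0.291), and sites within 500 kb (-2.27), or within 100 kb without chromosome ends (-0.970), no longer passed. The causes were not tested. No paired analysis was possible because peaks are not assigned to repeats, and for the same reason no replicate could be left out.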
